A study of Caenorhabditis elegans with 2 samples.

Results

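The genes that encode RNA polymerase III itself were examined for RPC-1 binding in Caenorhabditis elegans. The set is 10 listed genes of 19971 nuclear protein-coding genes: the polymerase subunit genes rpc-1, rpc-2, rpc-11, rpc-25, rpac-19 and rpac-40, the TFIIIB genes brf-1 and tbp-1, the TFIIIC gene tftc-3, and mafr-1, which encodes a repressor of the enzyme. They were chosen by name from the RefSeq annotation of the ce11 genome (WBcel235), not by any measured value, and all 10 were found there. Earlier results of these data were known when the list was made. Binding was measured by chromatin immunoprecipitation and sequencing (ChIP-seq) in 1 group of 2 samples, labelled biological replicates 1 and 3. Both came from whole young adult hermaphrodites of strain JK1107, which carries glp-1(q224), an allele of a Notch receptor gene needed for germline proliferation. The animals were of 1 transgenic line that stably expresses RPC-1 with GFP and FLAG at its C terminus, and anti-GFP was used for the precipitation. There was no untagged or otherwise untreated group, the promoter of the transgene is not given in the sources used here, and no tissue can be told from whole animals. Per the labels, replicate 1 was sheared with a Bioruptor and replicate 3 with a microtip, so shearing and replicate cannot be told apart.

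RNA polymerase III transcribes short untranslated RNAs, among them transfer RNAs and 5S ribosomal RNA. TFIIIC recognises the promoter inside a tRNA gene and recruits TFIIIB, which contains the TATA-binding protein and a BRF subunit and in turn positions the polymerase. The genes for these proteins encode messenger RNAs and are themselves read by RNA polymerase II. A summit of RPC-1, the largest polymerase III subunit, at such a gene is therefore a different observation from a summit at a tRNA gene.

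For each gene, summits were taken from 1000 bp upstream of the annotated 5′ end to the gene's end, here called the gene window. The deposited ce11 lists were 4: the list of each replicate, the list called on both replicates pooled, and the list labelled as thresholded by IDR, a method that sets a cut from how well peak ranks repeat between replicates. They hold 29914, 30000, 30000 and 1860 peaks for replicate 1, replicate 3, the pool and IDR. All 1860 IDR peaks are, with the same position and signal, the 1860 strongest peaks of the pooled list, so an IDR summit shows a strong pooled signal and does not by itself show that both replicates have the peak. The signal of a peak is a value the authors computed against a control, and its scale differs between lists, so ranks by signal within a list (1 is the strongest) are given beside it. Read counts are not part of the lists, and the depth behind a peak is unknown.

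One of the 10 genes, rpac-19, had an IDR summit in its window, and it lay upstream of the 5′ end (10%, against 6.44% of all protein-coding genes). In a narrower promoter window, 500 bp before the 5′ end to 250 bp after it, the count was also 1, against 2.97%. The other 9 genes had no IDR summit. No tRNA or snoRNA gene lay within 500 bp of any of the 10 windows, and the nearest such gene to a 5′ end was 18957 bp away, the tRNA gene T22A3.t3 beside mafr-1. With a single gene past the filter, the share of 10% rests on rpac-19.

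RPAC-19 is a small subunit that RNA polymerases I and III share, and its gene (F58A4.9) lies on the minus strand of chromosome III, from 9629246 to 9629885. The summit stood at III 9629988, 103 bp upstream of the 5′ end, in the intergenic stretch between rpac-19 and the upstream gene ubc-7, which encodes a ubiquitin-conjugating enzyme, lies on the same strand and has its 3′ end at 9630097. The summit was about as near to that 3′ end as to the 5′ end of rpac-19, and the data do not assign it to either gene. Its signal was 172 and its rank 909 in replicate 1, and its signal was 41.4 and its rank 962 in replicate 3. The pooled and IDR lists gave a signal of 222 and rank 922 for the same summit. Replicate 1 placed the summit at the same base as the pool and replicate 3 placed it 11 bp farther upstream. The rank was thus close to 3% of the list length in each replicate (3.04% and 3.21%).

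The bases under this peak and under the peaks of rpb-11 and rpb-4, the other RNA polymerase genes with an IDR summit, are shown because they are the IDR peaks at genes of the polymerase lists, and none of them has a small RNA gene, of the classes named further on, within 500 bp. Each runs 5′ to 3′ on the strand of the gene in ce11, all of it is intergenic, and the capitals mark the 21 bases centred on the IDR summit. They are chrIII:9629894-9630078 (minus strand), chrII:14059831-14060074 (plus strand) and chrII:7374227-7374470 (plus strand).
rpac-19: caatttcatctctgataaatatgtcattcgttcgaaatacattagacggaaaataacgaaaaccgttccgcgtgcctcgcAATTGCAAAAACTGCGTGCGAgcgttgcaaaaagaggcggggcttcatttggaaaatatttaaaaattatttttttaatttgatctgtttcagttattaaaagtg
rpb-11: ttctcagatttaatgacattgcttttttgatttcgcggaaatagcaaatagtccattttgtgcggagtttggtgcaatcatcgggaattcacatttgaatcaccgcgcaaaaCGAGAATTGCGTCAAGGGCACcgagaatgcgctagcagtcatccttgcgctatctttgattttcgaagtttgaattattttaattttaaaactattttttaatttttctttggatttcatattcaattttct
rpb-4: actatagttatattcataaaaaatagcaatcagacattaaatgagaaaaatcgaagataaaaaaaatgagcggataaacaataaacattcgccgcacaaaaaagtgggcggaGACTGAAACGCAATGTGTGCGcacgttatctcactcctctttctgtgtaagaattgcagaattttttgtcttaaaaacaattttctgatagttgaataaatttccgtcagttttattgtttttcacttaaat

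The rpac-19 peak spans 185 bases, and 35.1% of them are G or C, against 35.4% of the nuclear genome. Within 101 bases centred on the summit the share of G and C was 45.5%. The B-box, the inner promoter element of tRNA genes that TFIIIC binds, was searched as GTTCNANNC on both strands of the 300 bases centred on the summit, and no match was found. The same search found a match at 96.8% of the 534 IDR peaks with a tRNA gene within 250 bp, in 8.76% of the 300-base promoters of all protein-coding genes (250 bases upstream and 50 downstream of the 5′ end), and at neither rpb-11 nor rpb-4. The TATA box TATAAA, which does not overlap the B-box letters, was not found at the 3 summits either and was present in 37.9% of those promoters. At the 404 IDR peaks in protein-coding promoters described next, the B-box letters were found at 11.9% and TATAAA at 23.5%. A missing match says only that these letters are not in the window.

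The nearest annotated non-coding gene of any class was F58A4.20, 4515 bp from the rpac-19 summit. The peak therefore belongs with the 404 IDR peaks whose summit lay in a protein-coding promoter (500 bp upstream to 250 bp downstream) and more than 500 bp from any gene of a tRNA, tRNA pseudogene, snoRNA, snRNA, 5S rRNA, Y RNA, RNase P or MRP RNA or signal recognition particle RNA. Among these 404, 69 (17.1%) had a higher signal than the rpac-19 peak. Their median signal was 85.2, with quartiles at 64.6 and 158. Against peaks at tRNA genes the rpac-19 peak was weak: the median there was 2789, and 20 of 534 (3.75%) lay below it.

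**Figure D1:**
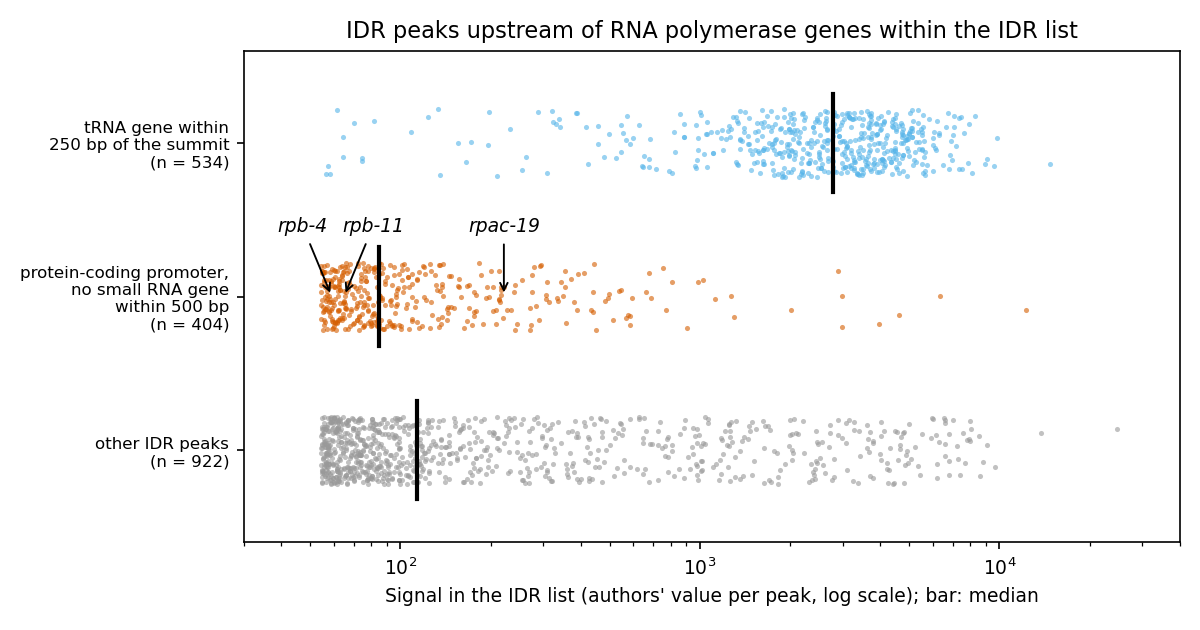
Signal of every IDR peak (x axis, the authors' value, log scale), in rows for peaks at tRNA genes, at protein-coding promoters without small RNA genes, and elsewhere; each point is a peak, vertical scatter within a row has no meaning, and the bars are medians. The rpac-19 peak, at 222, lies above the promoter median of 85.2 and below the tRNA median of 2789, and those of rpb-11 and rpb-4 lie below both.

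The 404 promoter peaks, with rpac-19 among them, were chosen by a summit from 500 bp upstream to 250 bp downstream of a 5′ end. A likeness in position was thus partly fixed in advance. The window also reaches farther upstream than downstream, which favours upstream summits. Within it, the rpac-19 summit lay between the quartiles of the distance to the 5′ end. Of the 404, 355 (87.9%) had the summit upstream of the nearest 5′ end, at a median of -172.5 bp with quartiles at -288 and -72.75 bp, and rpac-19 stood at -103 bp. The strongest summits of the replicates within 250 bp lay 11 bp apart at rpac-19, and a median of 20 bp apart over the 352 promoter peaks with a summit in both replicates. A rank of 1860 or better in both replicates, as at rpac-19, was seen at 164 of the 404 (40.6%). The share of G and C in 101 bases, 45.5% at rpac-19, lay between the quartiles of the 404 (44.6% and 53.5%). The summit also falls in the window of the next gene downstream, tbg-1 (γ-tubulin), whose 5′ end is farther from it than that of rpac-19.

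Genes whose strongest summits ranked most like that of rpac-19 over the 2 samples were sought by the sum of absolute differences of log10 rank in replicates 1 and 3, among 7936 other genes with a summit in both lists, leaving out tbg-1, whose strongest summit is the same one. They were rpl-14, a large ribosomal subunit protein gene, with ranks 913 and 968 and a sum of 0.00461, K05C4.7 with 897 and 948 (0.0121), and Y111B2A.12 with 885 and 950 (0.0171). Their pooled signals were 204, 241 and 210. For rpc-1 the measure could not be computed, because replicate 1 had no summit in its window.

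Weaker summits flanked the main one in the rpac-19 window. One lay near the gene's 3′ end, 577 bp into the gene in replicate 1 (signal 6.86, rank 19156) and 552 bp in replicate 3 (4.75, rank 28969), and the pool had one at 445 bp (18.1, rank 10893). Single summits lay 704 bp upstream in the pool (9.88, rank 25870) and 525 bp upstream in replicate 3 (8.17, rank 12799), both inside ubc-7. The pooled ones lay below 54.3, the lowest signal of the IDR list.

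RPAC-40 is the partner of RPAC-19 and is likewise shared by polymerases I and III. Its gene (V, 4199485 to 4203696, plus strand) had no IDR, pooled or replicate 1 summit. Replicate 3 alone had a summit in a coding exon 2628 bp into the gene, with a signal of 18.0 and rank 1868, and another at 978 bp, with 14.9 and rank 2875. The former lay 8 places outside the top 1860 of that list. The subunit pair therefore differed: at rpac-19 both replicates had a summit just upstream of the 5′ end, and at rpac-40 replicate 3 alone had summits, within the gene.

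The large subunits RPC-1 and RPC-2 together form the catalytic centre. At rpc-1 (IV, 7160135 to 7165748, minus strand), the gene of the tagged protein itself, the IDR, pooled and replicate 1 lists held no summit. The list of replicate 3 held 1 summit, 2197 bp into the gene in a coding exon, with a signal of 5.94 and rank 21900. The lists do not show whether reads of the transgene, wherever it lies, were placed at this gene.

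The gene of the second-largest subunit, rpc-2 (III, 5557365 to 5564837, plus strand), was the only other member with summits of both replicates within 250 bp of each other, and it had 3 such places, all in coding exons. Nearest the 5′ end, the summits lay at 149 bp in replicate 1 (signal 7.76, rank 17108) and at 259 bp in replicate 3 (5.43, rank 24746), with a pooled summit at 191 bp (17.6, rank 11524). The next pair lay at 1337 bp (3.66, rank 28682) and 1400 bp (6.42, rank 19537), with a pooled signal of 10.5. The last lay at 4434 bp (8.36, rank 15896) and 4400 bp (5.94, rank 21936), with a pooled signal of 14.8. The replicate summits at these places ranked from 15896 to 28682, past the middle of each list. Their deposited −log10 q ran from 0.0734 to 1.83 in replicate 1 and from 0.409 to 0.712 in replicate 3, so these are weak calls. Further summits in the window came from replicate 1 at 4860 bp, from replicate 3 at 2241 bp, and, 945 and 930 bp upstream in an intron of hach-1, from the pool and replicate 1, with signals of 3.73, 4.87, 12.2 and 3.69.

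RPC-11 carries a TFIIS-type domain; its yeast counterpart acts in RNA cleavage and termination. Its gene (IV, 1408608 to 1410041, minus strand) was the only member with a pooled summit and none in either replicate. That summit lay in an intron 206 bp from the 5′ end, with a signal of 17.5 and rank 11546. The nearest non-coding gene was the tRNA pseudogene Y77E11A.t1, 2500 bp from the summit.

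RPC-25 is named in RefSeq as subunit RPC8, part of the stalk that stands out from the polymerase. Its gene (V, 10205680 to 10206602, minus strand) had the second highest pooled signal of the 10, 23.5 at rank 6699, in a coding exon 155 bp from the 5′ end. Replicate 1 had a summit at the same base, with a signal of 21.9 and rank 4094, and replicate 3 had none in the window. Further summits of replicate 1 lay 887 bp into the gene (3.86, rank 27897) and 710 bp upstream (4.02, rank 27323). The replicates thus differed at rpc-25, with the opposite split to rpac-40.

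The upstream one of these belongs to the neighbouring member as well. The TFIIIC gene tftc-3 (V, 10206716 to 10210344, minus strand), which codes for a TPR-repeat subunit, ends close upstream of rpc-25, and the summit at V 10207312 lies in its coding exon, 3032 bp from its own 5′ end. The 2 genes share that summit and are not independent there. In replicate 3, tftc-3 had a summit in a coding exon 302 bp from the 5′ end, with a signal of 11.3 and rank 6003. Its summits in the replicates were thus at opposite ends of the gene, and the pooled list had none.

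BRF-1 is the TFIIB-related subunit of TFIIIB. Its gene (II, 7305858 to 7308792, plus strand) had a summit 91 bp into the gene in replicate 1 (signal 15.6, rank 6979) and 85 bp in the pool (17.4, rank 11757), in a coding exon. The nearest summit of replicate 3 lay at 551 bp (8.42, rank 12071). Near the 3′ end replicate 3 had a summit at 2378 bp (11.1, rank 6290) and the pool one at 2361 bp (13.1, rank 18311), and replicate 1 had none within 250 bp. The strongest summit of replicate 1 in the window, 16.2 at rank 6559, lay 985 bp upstream in a coding exon of cul-4, the next gene. The other 5 summits, 2 each in the pool and in replicate 1 and 1 in replicate 3, had signals from 3.90 to 9.31. No place in brf-1 was marked by both replicates.

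The TATA-binding protein gene tbp-1, whose product serves the nuclear RNA polymerases in general, lies at III 7384033 to 7386124 on the plus strand. Replicate 3 alone had summits there, 658 bp into the gene in an intron (signal 6.61, rank 18616) and 969 bp upstream in T20B12.3 (6.57, rank 18825). The repressor gene mafr-1 encodes the worm Maf1 protein, which holds the polymerase inactive, and lies on chromosome I from 10623173 to 10624361 on the plus strand. Replicate 3 alone had a summit 8 bp from its 5′ end, with a signal of 16.5 and rank 2270, and another at 592 bp (7.26, rank 15974). Neither gene had a pooled or IDR summit.

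**Figure D2:**
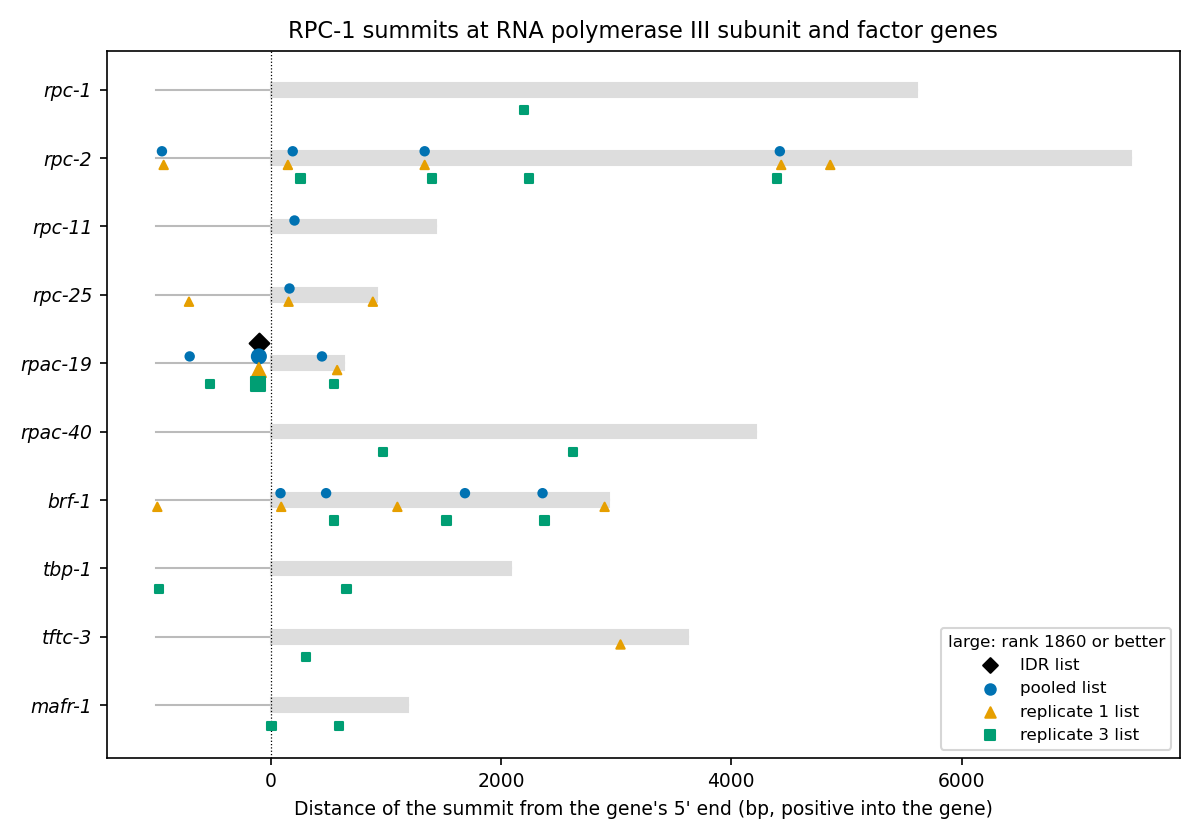
Position of every summit in the windows of the 10 genes, as distance from the 5′ end in bp (x axis), with grey bars for the genes and symbols for the IDR, pooled and replicate lists; large symbols rank 1860 or better in their list. Summits of all lists coincide at 1 place within a rank of 1860, 103 to 114 bp upstream of rpac-19.

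Counts over the 10 genes are read against those of all protein-coding genes. A pooled summit was present at 5 of the 10 (rpc-2, rpc-11, rpc-25, rpac-19 and brf-1), against 53.9%. Replicate 1 had a summit at 5, against 51.0%, and replicate 3 at 8, against 64.3%. Both replicates had one at 4 (rpc-2, rpac-19, brf-1 and tftc-3), against 39.7%, and within 250 bp of each other at 2 (rpac-19 and rpc-2), against 25.3%. Summits in replicate 3 alone were found at 4 genes (rpc-1, rpac-40, tbp-1 and mafr-1), a pattern of 24.6% of all genes; the part of the shearing method in it was not tested. Replicate 1 alone had one at rpc-25, a pattern of 11.3% of all genes. In the promoter window the pooled count was again 5, against 26.3%. With 10 genes, each gene moves a share by 10 percentage points, and none of these differences was tested.

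Longer windows offer more room for a summit, so summits were also counted per length. The 10 windows span 40.1 kb and held 3.24 pooled summits per 10 kb, against 3.29 over the windows of all protein-coding genes. In replicate 1 the values were 3.74 and 3.29, and in replicate 3 they were 4.48 and 3.23. Among members with a pooled summit the median of the best rank was 11524, against 9597 over all genes with one, whose quartiles were 4146 and 17096.5. In the replicates the members' medians were the better ones, 6559 against 9004 in replicate 1 and 6146.5 against 10415 in replicate 3, and each lay within the quartiles of all genes (3905.25 to 16300.5 and 4659 to 18381). Leaving rpac-19 aside, the best ranks of members ran from 6699 to 11757 in the pool.

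**Figure D3:**
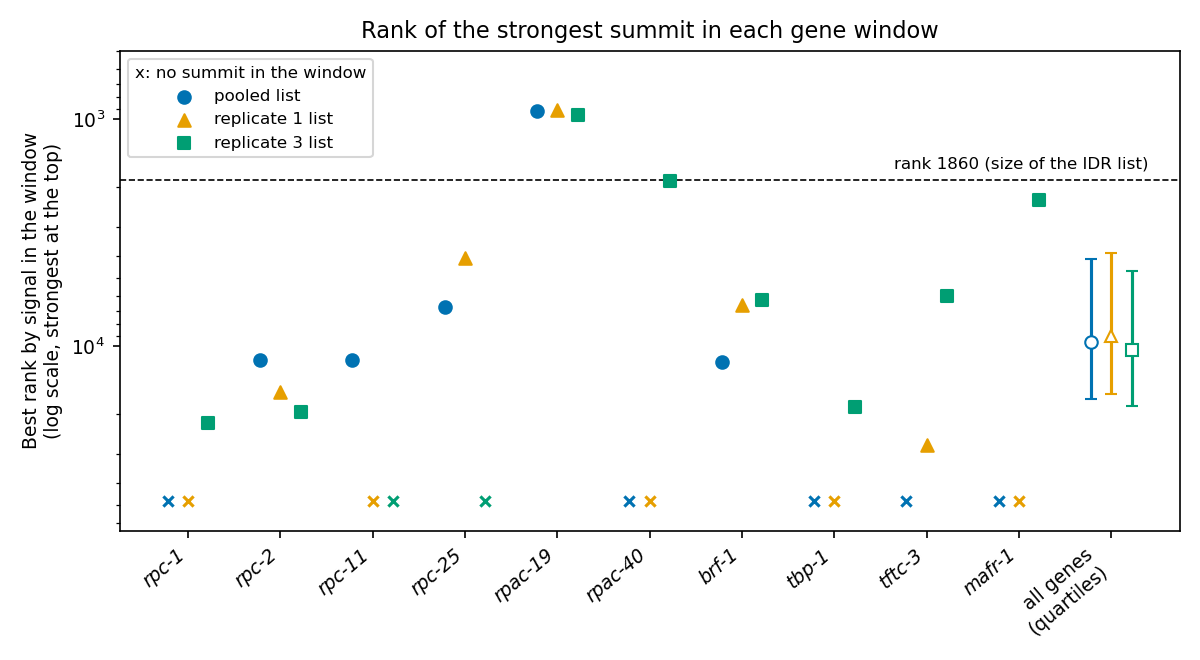
Rank of the strongest summit in each gene window (y axis, log scale, strongest at the top) in the pooled and replicate lists, with crosses where a list has no summit, and at the right the median and quartiles over all protein-coding genes with a summit. The 3 points of rpac-19 lie at 909 to 962, above the line at 1860, and rpac-40 lies at 1868 in replicate 3.

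Other genes of the transcription apparatus were read the same way, against 6.44% of all protein-coding genes with an IDR summit and 53.9% with a pooled one. None of 12 further RNA polymerase III genes, found by symbol or RefSeq product name, had an IDR summit, and 5 had a pooled one. The highest pooled signal among them, 26.0 at rank 5512, was at let-611, whose product is named as subunit RPC3. Of the 8 genes of SNAPc, the complex that recruits polymerases to snRNA genes, none had an IDR summit and 6 had a pooled one, led by snpc-4 at 26.9. None of the 5 genes of subunits that the polymerases share had an IDR summit, and 2 had a pooled one, led by rpb-8 at 20.5. Among them rpb-12 and rpb-10 ranked 1470 and 1838 in replicate 3, with signals of 20.7 and 18.2, while in replicate 1 rpb-12 had no summit and rpb-10 ranked 24929.

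None of the 4 RNA polymerase I genes had an IDR summit, against 6.44% of all protein-coding genes. All 4 had a pooled one, against 53.9%, led by rpoa-1 at 30.4. Its window held 9 pooled summits, a count not set against the length of the window. The strongest summit of rpoa-1 ranked 1635 in replicate 3, with a signal of 19.3, and 7549 in replicate 1. Of 7 RNA polymerase II genes, 2 (28.6%, against 6.44%) had an IDR summit: rpb-11 (II, 14060085 to 14060624) and rpb-4 (II, 7374495 to 7375237), both subunits of that enzyme. Their summits stood 132 and 146 bp upstream of the 5′ ends, with signals of 64.8 and 59.0 and ranks 1574 and 1707, near the end of the IDR list. At rpb-11 the nearest summits ranked 2248 in replicate 1 and 16732 in replicate 3, and at rpb-4 2983 and 13306. Replicate 3 also had a stronger summit at rpb-11, 333 bp upstream of its 5′ end, with a signal of 11.3 and rank 5952. Neither gene thus had a summit in the top 1860 of either replicate, unlike rpac-19. The rpb-4 summit lies between rpb-4 and mtch-1, which is read in the opposite direction, and the data do not assign it to either. The lists are small, and no difference between them was tested.

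**Figure D4:**
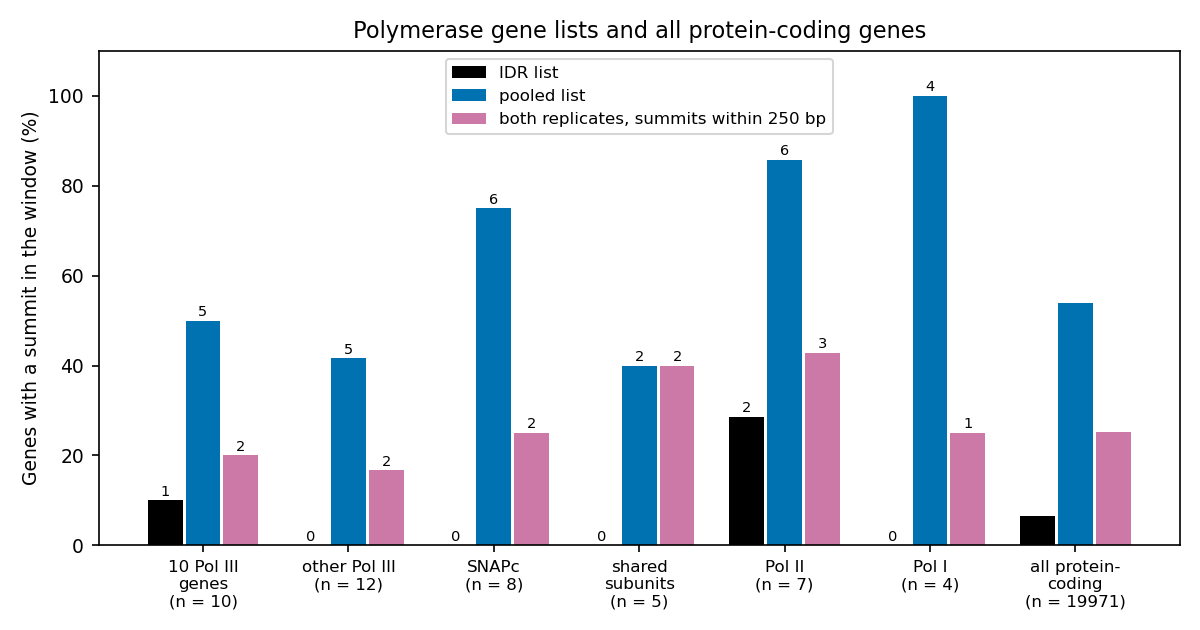
Percent of genes with a summit in the gene window (y axis) in the IDR list, the pooled list, and both replicates within 250 bp, for the 10 RNA polymerase III genes, 5 lists of related genes and all protein-coding genes; numbers above bars are gene counts. IDR summits were found at 1 of the 10 genes and at 2 of 7 RNA polymerase II genes, and at 0 in the other lists of related genes, against 6.44% of all protein-coding genes.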

How the data were processed

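RPC-1 ChIP-seq peaks of 2 samples (replicates 1 and 3, 1 group) were read from the authors' narrowPeak lists on ce11. Per the file headers, 1 list was called per replicate and 1 on both replicates pooled, each against a control alignment, and the IDR list was derived from those 3. Neither aligner nor peak caller is named in the labels or headers. Column 7 is the deposited signal of each peak, and column 9 is the deposited −log10 of its q-value. No value was renormalized. The ce10 lists were not used.

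Summits (column 2 + column 10, printed counting from 1) were assigned with Python 3.11.15, numpy 2.4.6 and pandas 2.3.3 to windows from 1000 bp upstream of the 5′ end to the end of each gene in the RefSeq WBcel235 annotation, which is the ce11 assembly; no peak ran past a chromosome's end. Sequences were read from that RefSeq genome. With 1 group there was no comparison of conditions and no test: counts of the 10 genes are set beside the same share over 19971 nuclear protein-coding genes. Named genes were the 10, genes of the related lists with an IDR summit or else the highest pooled signal, and the 3 nearest in replicate ranks; rpb-10, rpb-12 and the neighbouring genes were added for their place. The members and lists were chosen with earlier results of these data known. Window counting was tested on simulated summits. Alternatives changed the window, the list, the overlap, the threshold and the replicates.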

Additional observations from a re-analysis of the deposited data

How the results depend on the processing

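The IDR count of 1 (rpac-19) was the same under all 8 alternatives: 3 other windows, overlap by 1 bp, the strongest 930 peaks of the IDR list, where rpac-19 ranked 922, peaks near RNA polymerase III RNA genes (with all snRNA genes and tRNA pseudogenes) or snoRNA genes left out, and the top 1860 peaks of either replicate alone. For some of these the count was fixed in advance. The promoter window and the 1000 bp upstream alone lie inside the gene window, and both hold the rpac-19 summit at -103 bp. Over all genes the shares there were 2.97% and 3.71%. The strongest 930 peaks include its rank. No small RNA gene lies within 500 bp of that summit, so leaving out peaks near such genes removed nothing there. The count was free to change with windows run 1000 bp past the gene's end (8.67% of all genes) or overlap by 1 bp (7.06%). The same holds for the top 1860 peaks of replicate 3 (6.28%) or replicate 1 (6.38%). The number of IDR summits within 500 bp of a tRNA or snoRNA gene stayed 0 at 250 and 1000 bp. That was fixed in advance, because the nearest such gene lies 87392 bp from the rpac-19 summit. The highest pooled signals of the 5 genes that have one did not move in the promoter window. That was fixed too, because each of these summits lies in that window. Leaving out peaks near small RNA genes did not move these signals either, because none of these summits has such a gene within 500 bp. The count of 5 genes with a pooled summit fell to 2 upstream of the 5′ end only (29.2% of all genes) and ran from 5 to 8 when either replicate's list alone was read (51.0% and 64.3% of all genes). It was 7 with windows run 1000 bp past the gene's end (60.5% of all genes), and stayed 5 with the pooled list cut at its median signal (37.1%). The count of 4 genes with a summit in both replicates was 1 in the promoter window (11.3% of all genes), 2 with summits within 250 bp (25.3%) and 2, brf-1 and rpac-19, with each list cut at its median signal (23.1%). No paired analysis was possible because there is 1 group. Depth is unknown, so weak summits cannot be weighed by counting error.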

Other observations

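The deposited −log10 q does not always follow the signal among the stronger peaks, and falls with it further down the lists. In the pooled list the median −log10 q was 3.23 for ranks 1 to 1000, 2.11 for ranks 1001 to 1860 and 2.47 for ranks 5001 to 10000. It was 1.17 for ranks 10001 to 20000 and 0.390 for ranks 20001 to 30000, so the lists also hold weak calls. Such calls include the summits of rpc-1 in replicate 3 (0.554) and tftc-3 in replicate 1 (0.140). In replicate 3, −log10 q at rpac-19 was 2.17 with a signal of 41.4, whereas the summit of tftc-3 in replicate 3, with a signal of 11.3, had 2.80. In the pool the order of rpac-19 (2.57) and rpc-25 (2.54) followed the signal. Ranks in the text are by signal.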
